A study of Mus musculus with 6 samples.

Results

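The epithelial miR-200 family was followed in small RNA libraries of dorsal striatum, taken from C57BL/6N mice 7 weeks old. Its members were taken by name, as every listed arm of miR-200a, miR-200b, miR-200c, miR-141 and miR-429, and 5 of the 756 mature microRNAs (miRNAs) in the table matched, each of them a 3p arm. The saline control group (n = 3 libraries) received saline injections and neither drug. The nicotine withdrawal group (n = 3 libraries) received nicotine at 0.5 mg/kg once daily for 3 days, followed 24 hours after the last dose by mecamylamine at 3.0 mg/kg, which blocks nicotinic receptors and so precipitates withdrawal. In both groups the striatum was collected 1 week after injections ended. The comparison covers both drugs together. The labels do not say that each library is a separate mouse, and if some share a mouse the p-values reflect spread among samples that may be technical.

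The miR-200 family is made from a pair of genomic clusters and is known as a mark of epithelial cells, where it represses the transcription factors ZEB1 and ZEB2 and so holds cells in the epithelial state. In the nervous system it is known from the olfactory epithelium, where it acts in the differentiation of olfactory neurons in mouse and zebrafish. The bases from position 2 to 8 of a miRNA, the seed, pair with target messenger RNAs, and the family falls into a pair of seed groups.

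The mature sequences are shown because the results below divide the members by seed as well as by cluster. They come from RefSeq (GRCm38.p6, all 5 members matched) and run 5′ to 3′ with the seed in capitals.
mmu-miR-200a-3p: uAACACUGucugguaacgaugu
mmu-miR-141-3p: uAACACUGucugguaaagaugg
mmu-miR-200b-3p: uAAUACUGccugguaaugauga
mmu-miR-429-3p: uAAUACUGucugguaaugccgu
mmu-miR-200c-3p: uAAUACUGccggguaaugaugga

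The seed of miR-200a-3p and miR-141-3p differs from that of miR-200b-3p, miR-429-3p and miR-200c-3p by 1 base, C4U when miR-200a-3p is read against miR-200b-3p and positions are counted from 1 at the 5′ end. No other mature mouse miRNA in the RefSeq table had either seed. The seed groups cut across the clusters. Mir429, Mir200a and Mir200b lie together on the minus strand at chr4:156053905-156055750 (GRCm38.p6), inside the long noncoding RNA gene Gm13648 and beside Ttll10. Mir141 and Mir200c lie on the minus strand at chr6:124717914-124718390, between Phb2 and Ptpn6. The members closest in sequence are seed mates from different clusters: miR-200a-3p and miR-141-3p differ at 2 of 22 positions (C17A and U22G), and so do miR-200b-3p and miR-200c-3p (U11G and A22G). How reads that could belong to more than one of them were assigned is not given in the sources used here.

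Family members were scarce in this tissue. Values below are normalized reads, which are read counts divided by a size factor of each library. All 5 members are 22 or 23 bases long, so a scale per length would leave their order as it is, but adapter ligation and amplification also depend on sequence, and their part in the order of levels was not tested. Out of every 1000000 normalized reads the members together took 14.8 ± 0.501 in controls and 18.6 ± 1.67 in withdrawal (mean ± SD, n = 3 each). By mean level over the 6 libraries miR-429-3p ranked 430 of 756, miR-200b-3p 452, miR-200a-3p 465, miR-141-3p 479 and miR-200c-3p 710. This order of levels held in 5 of the 6 libraries, and in withdrawal 3 miR-141-3p stood above miR-200a-3p. In controls the ranges of neighbours in this order did not overlap, while in withdrawal those of miR-200b-3p and miR-200a-3p overlapped, and so did those of miR-200a-3p and miR-141-3p.

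**Figure D1:**
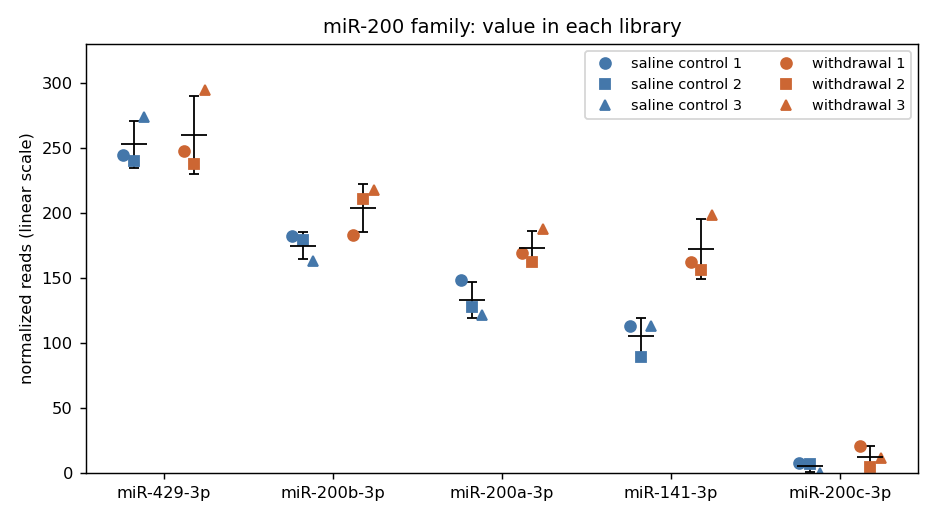
Normalized reads of each family member in each library, on a linear axis from 0; symbols give the replicate number, and horizontal lines with bars give the group mean ± SD (n = 3). The miR-141-3p values of withdrawal (156 to 199) all lie above those of controls (88.9 to 113), while the miR-429-3p groups overlap.

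Neuronal miRNAs were abundant in this tissue, labelled as dorsal striatum. The neuronal list (miR-124-3p, miR-9-5p, miR-128-3p and miR-138-5p) summed to between 2806355 and 2899444 normalized reads per library. The 2 measured miRNAs of the list for organs outside the brain summed to 178 to 194 in controls and 143 to 184 in withdrawal. Of these the liver miRNA miR-122-5p took at most 37.4 in any library. The other, miR-208b-3p, took 118 to 173, a level like that of miR-141-3p (88.9 to 199). All values of a library were whole multiples of 1 step. Taking a step as 1 read, library totals lay between 40111870 and 53262896 reads. At that depth miR-141-3p rested on 100 to 238 reads per library and miR-200c-3p on 0 to 21. The intervals and counting errors given here do not cover PCR copies, since the reads carry no molecular identifiers.

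One member, miR-141-3p, rose in withdrawal. It is made from the cluster on chromosome 6 and shares its seed with miR-200a-3p. Normalized reads of mmu-miR-141-3p were 113, 88.9 and 113 in controls 1 to 3, and at 162, 156 and 199 in withdrawal 1 to 3. Every withdrawal library lay above every control, with control 2 lowest and withdrawal 3 highest. The mean went from 105 ± 13.9 to 172 ± 22.9 (SD, n = 3 each), a log2 fold change of 0.71 ± 0.13 (SE, on the log2(value + 1) scale), which is 1.64-fold with a 95% interval of 1.34 to 2.00. It passed in limma over all 699 tested miRNAs (Benjamini-Hochberg adjusted p = 0.00759), where 3.00% were called higher, 3.58% lower and 6.58% in either direction. The coefficient of variation between libraries was 13.3% in controls and 13.3% in withdrawal, against counting errors of 9.79% and 7.22%. The call was lost without control 2, at a log2 fold change of 0.60 (limma adjusted p = 0.0539), with quantile normalization (0.0655), and without a trend of variance on level (0.185), a fit that called 0 of 699 (112 at an unadjusted p under 0.05).

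Its cluster mate miR-200c-3p was too scarce to enter the fit. Normalized reads of mmu-miR-200c-3p were 7.93, 7.11 and 0 in controls and at 20.9, 4.47 and 11.7 in withdrawal, so that the groups overlapped. It stayed below the filter on low values, which asked for at least 10 in at least 3 libraries. The smallest positive value of a library was 4 or 5 steps, so a listed 0 may cover smaller values. With no filter its log2 fold change was 1.46 ± 0.88 (limma adjusted p = 0.364), a value that depends on the pseudocount because of the listed 0. In each library miR-141-3p was the more abundant of the pair. The log2 ratio of miR-141-3p to miR-200c-3p had an exact permutation p of 0.7 (two-sided, n = 3 against 3), a comparison that rests on the few reads of miR-200c-3p.

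In the cluster on chromosome 4 no member passed the test. mmu-miR-200a-3p, the seed mate of miR-141-3p, was listed at 148, 128 and 122 normalized reads in controls and at 169, 163 and 188 in withdrawal. The groups did not overlap, and withdrawal 3 was again highest. Its log2 fold change was 0.38 ± 0.11, or 1.30-fold with a 95% interval of 1.10 to 1.54 (limma adjusted p = 0.0624). This value passed with equal library totals (limma adjusted p = 0.0366) and without control 1 (0.0406), where the log2 fold change was 0.42 and 0.47. With quantile normalization miR-200a-3p lay further from the threshold (limma adjusted p = 0.152). The same held without a trend of variance on level (limma adjusted p = 0.194) and without control 3 (0.192). Over all alternatives its log2 fold change ranged from 0.32 to 0.47.

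mmu-miR-200b-3p, which carries the other seed, was listed at 182, 179.6 and 163 normalized reads in controls and at 183, 211 and 218 in withdrawal. The groups did not overlap, but the gap between control 1 and withdrawal 1 was under 1 normalized read. The log2 fold change was 0.22 ± 0.10, or 1.16-fold with a 95% interval of 1.00 to 1.35 (limma adjusted p = 0.216). The coefficient of variation was 6.08% in controls and 8.98% in withdrawal, near the counting errors of 7.55% and 6.64%.

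mmu-miR-429-3p, the most abundant member, was listed at 245, 240.0 and 273 normalized reads in controls and at 248, 238 and 295 in withdrawal. The groups overlapped, and the lowest of the 6 values belonged to withdrawal 2. The log2 fold change was 0.037 ± 0.098, or 1.03-fold with a 95% interval of 0.885 to 1.19 (limma adjusted p = 0.882), and it stood at -0.056 without withdrawal 3.

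Of the 4 tested members 1 was called, as higher, where 3.00% of all tested miRNAs were called higher and 6.58% in either direction. All 4 log2 fold changes were positive with a median of 0.30, where 50.8% of the 699 tested miRNAs were positive with a median of 0.0026. The groups did not overlap, with withdrawal higher, in 3 of the 4 tested members and in 13.0% of all tested miRNAs. No 5p arm of the family was listed, so the balance between the arms of a precursor was not analysed here. In bulk tissue, fewer cells of a type and less RNA per cell cannot be told apart, and this holds for a rise as well.

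**Figure D2:**
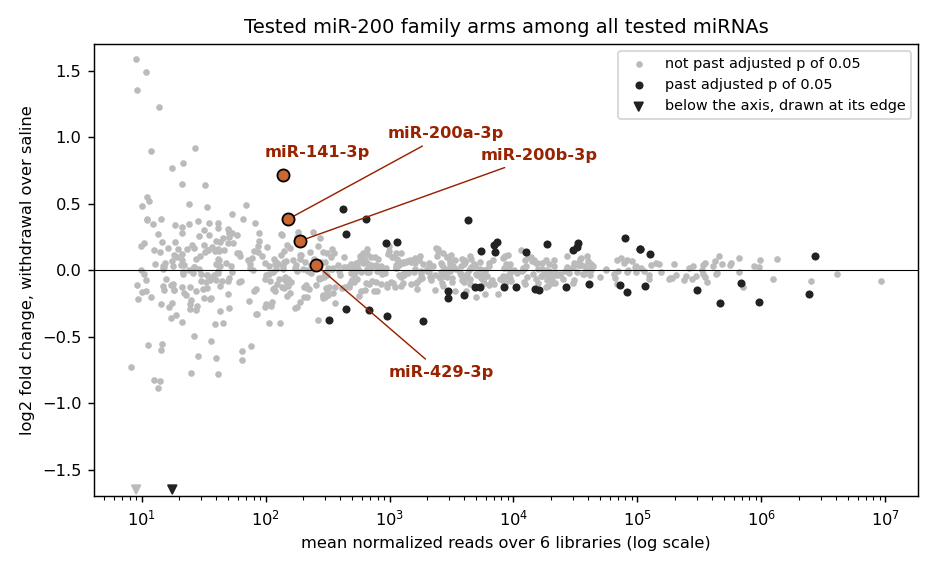
Log2 fold change (withdrawal over saline, log2(value + 1) scale) of the 699 tested miRNAs against their mean normalized reads over 6 libraries, on a log axis; black points passed at an adjusted p of 0.05, and the 4 tested family arms are ringed and named. miR-141-3p at 0.71 stands above the other arms, and 2 miRNAs below the axis limit of -1.7 are drawn at its edge.

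The members of one cluster did not carry equal values, but an exact permutation test of 3 libraries against 3 cannot go below p = 0.1. Ratios were compared for the 4 pairs of members that share a cluster. The log2 ratio of miR-200a-3p to miR-429-3p was -0.72, -0.90 and -1.16 in controls and -0.55, -0.54 and -0.65 in withdrawal. The groups did not overlap, and the ratio was higher in withdrawal by 0.35 (exact permutation p = 0.1, two-sided, the smallest this design allows, adjusted over the 4 pairs p = 0.4). The ratio of miR-200a-3p to miR-200b-3p was higher by 0.17 (exact p = 0.2) and that of miR-200b-3p to miR-429-3p by 0.18 (exact p = 0.6), each with overlapping groups. None of the ratios was therefore shown to change.

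Sums by seed and by cluster are given as descriptions, with no test. The seed group of miR-200a-3p and miR-141-3p stood at 262, 217 and 235 normalized reads in controls and at 331, 319 and 386 in withdrawal. The other seed group stood at 435, 427 and 436 in controls and at 452, 453 and 524 in withdrawal. The first group made up 35.4 ± 1.97% of family reads in controls and 42.0 ± 0.613% in withdrawal, with no overlap between the groups of libraries. That share includes miR-141-3p, whose mean went from 105 to 172, so it is not separate from the call of that member. Within the first group, miR-141-3p reached 0.763, 0.694 and 0.926 of the level of miR-200a-3p in controls and 0.959, 0.962 and 1.06 in withdrawal. That ratio was chosen after its values were seen. Summed by cluster, the chromosome 6 members, which again include miR-141-3p, had 1.68 times and the chromosome 4 members 1.14 times their control mean.

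Withdrawal 3 was the highest library for each of the 4 tested members, and also the library with the most reads. Of all 699 tested miRNAs, 19.9% had their maximum in withdrawal 3. Without withdrawal 3 the log2 fold change of miR-141-3p was 0.61 (limma adjusted p = 0.0160), and that of miR-200a-3p was 0.32.

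**Figure D3:**
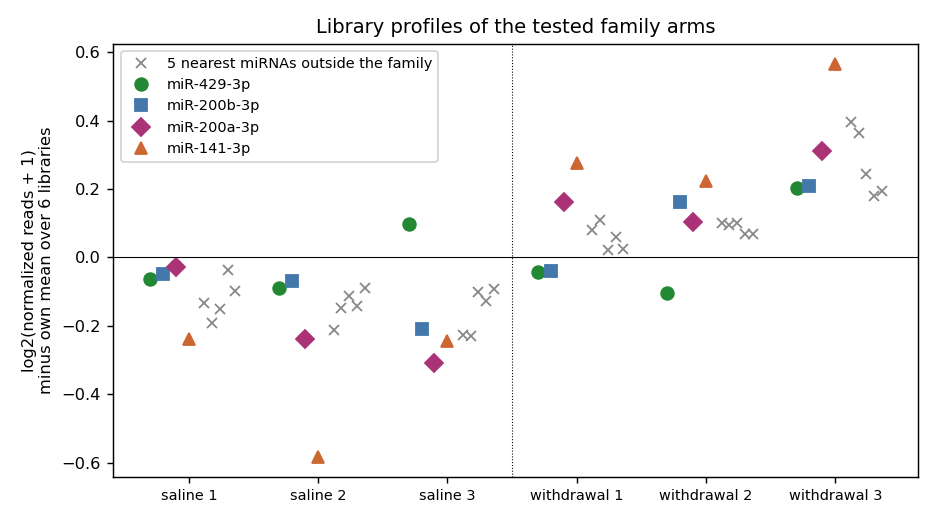
Log2(normalized reads + 1) of the 4 tested family arms in each library, each centred on its own mean over the 6 libraries, with the 5 nearest miRNAs outside the family as grey crosses. miR-141-3p spans the range from -0.58 in saline 2 to 0.57 in withdrawal 3, and miR-429-3p stays between -0.10 and 0.20.

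The miRNAs nearest to the mean profile of the 4 tested members were sought by the root-mean-square difference of log2 profiles over the 6 libraries. Each profile was first centred on its own mean. Among 695 miRNAs outside the family the nearest was miR-10b-5p, a Hox cluster miRNA, at a difference of 0.044, where the median miRNA stood at 0.22. Its values were 576, 546 and 541 normalized reads in controls and 669, 678 and 833 in withdrawal. Next came miR-182-5p of the sensory cluster (0.066), miR-146b-5p (0.077), miR-350-3p (0.079) and miR-146a-5p (0.092), the miR-146 pair being known for feedback on inflammatory signalling. Their log2 fold changes ran from 0.19 to 0.38 and withdrawal 3 was highest in all 5, which follows from choosing them by their likeness to a profile of that shape. Among the members themselves, miR-200a-3p and miR-200b-3p had the smallest difference (0.12), and miR-429-3p and miR-141-3p the largest of the 6 pairs (0.35). These differences are between single profiles, and cannot be read against the differences from a mean profile given above.

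Markers of other epithelia did not pass. None of 7 miRNAs of skin, gut, kidney and gland was called (2 of 7 positive, median log2 fold change -0.077), and they summed to between 95068 and 97678 normalized reads in controls and between 98408 and 102041 in withdrawal. Most of that was miR-192-5p, known from gut and liver (log2 fold change 0.078 ± 0.028, limma adjusted p = 0.125). miR-205-5p, a marker of stratified epithelia, was listed at 13.6, 14.2 and 19.0 in controls and 17.9, 9.83 and 11.7 in withdrawal, and the groups overlapped. The groups did not overlap for miR-192-5p and miR-184-3p (0.18 ± 0.058, limma adjusted p = 0.0870). Withdrawal was the higher group in both, as in 13.0% of all tested miRNAs. It was the lower group, with no overlap, for miR-31-5p (-0.077 ± 0.031, limma adjusted p = 0.156) and miR-194-5p (-0.10 ± 0.040, limma adjusted p = 0.153). The rest of the list overlapped. No marker of this list was listed at 0 in any library.

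In the sensory cluster, known from hair cells and photoreceptors, 2 of 3 miRNAs rose, where 3.00% of all tested miRNAs were called higher. The list was chosen with earlier results of these data known, so its count beside that share is a description and not a test. Its summed level went from between 3979 and 4243 normalized reads in controls to between 5079 and 5994 in withdrawal. miR-182-5p was listed at 3725, 3846 and 3629 in controls and 4596, 4550 and 5481 in withdrawal (higher by 0.38 ± 0.060 on the log2 scale, limma adjusted p = 0.00673). miR-183-5p was the other called miRNA (0.46 ± 0.071, limma adjusted p = 0.00673), and miR-96-5p stood at 0.77 ± 0.40 on 6.99 to 22.7 normalized reads (limma adjusted p = 0.268). Their part in the result for miR-141-3p was not tested.

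No choroid plexus, ependymal or ciliated marker passed the test. Of the choroid plexus pair, the more abundant miR-204-5p stood at 0.067 ± 0.027 (limma adjusted p = 0.156). Its groups did not overlap, with withdrawal higher, while those of the other of the pair overlapped. The summed level of the pair was 86967 to 90455 normalized reads in controls and 90886 to 93506 in withdrawal. None of 6 ependymal and ciliated miRNAs passed, though all 6 were positive with a median of 0.11, and their sum was 9328 to 9605 in controls and 9779 to 10310.3 in withdrawal. Their most abundant member, miR-34c-5p, stood at 0.056 ± 0.034 (limma adjusted p = 0.350). Its groups did not overlap, nor did those of miR-34b-5p (0.24 ± 0.091, limma adjusted p = 0.141) and miR-449a-5p (0.14 ± 0.045, limma adjusted p = 0.0768). Withdrawal was the higher group in each, as in 13.0% of all tested miRNAs, and the rest of the list overlapped. Of the pituitary and endocrine pair, miR-7a-5p rose by 0.21 ± 0.054 (limma adjusted p = 0.0357) and miR-375-3p stood at -0.11 ± 0.070, and the sum was 6923 to 7503 in controls and 7681 to 9031 in withdrawal. None of these markers was listed at 0 in any library, and their part in the result for miR-141-3p was not tested.

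**Figure D4:**
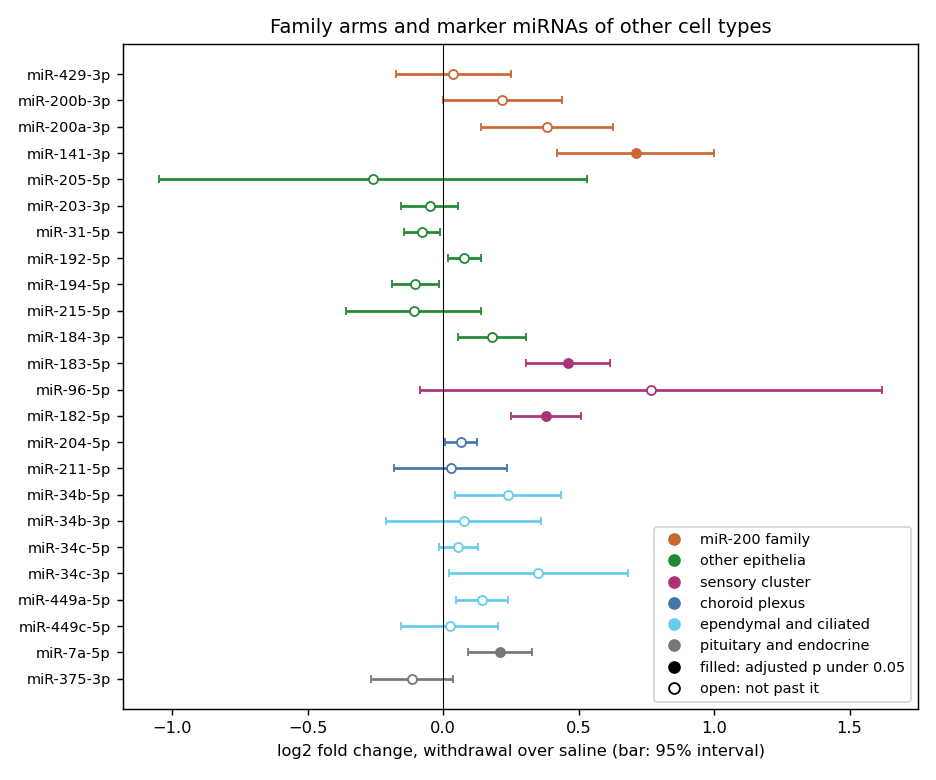
Log2 fold change (withdrawal over saline, log2(value + 1) scale) with its 95% interval for the 4 tested family arms and the marker miRNAs of the other epithelia, the sensory cluster, choroid plexus, ependymal and ciliated cells, and pituitary and endocrine cells; filled points passed at an adjusted p of 0.05. The filled points are miR-141-3p (0.71), miR-183-5p (0.46), miR-182-5p (0.38) and miR-7a-5p (0.21).

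Of the neuronal list, miR-138-5p, which acts on dendritic spine size, fell by 0.25 ± 0.048 on the log2 scale (limma adjusted p = 0.00934), while the other 3 missed the threshold. The most abundant of them, miR-9-5p, stood at 0.085 ± 0.033 (limma adjusted p = 0.156), and miR-124-3p at 0.054 ± 0.029 (limma adjusted p = 0.281). Like miR-138-5p, miR-128-3p was lower in withdrawal, at -0.13 ± 0.037, just short of the threshold (limma adjusted p = 0.0543). Of the list for organs outside the brain neither measured miRNA passed, and the more abundant, miR-208b-3p, stood at -0.19 ± 0.13 (limma adjusted p = 0.405).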

How the data were processed

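The deposited table holds normalized signal for 6 small RNA libraries, in which each value lies within 0.01 of a whole multiple of one step per library (100% of values). Libraries were prepared with the TruSeq Small RNA kit from Trizol-extracted RNA, per the labels' protocols. The submitters' processing notes name DESeq2 and the mouse build mm9 with no role or version. Aligner, miRNA annotation and the handling of multi-mapping reads: not given in the sources used here.

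Values were taken as log2(value + 1). The filter asked for a value of 10 or more in at least 3 libraries, which 699 of 756 miRNAs met. Groups were compared with limma (version 3.58.1, R 4.3.3), with variance moderated toward a trend on level and two-sided p-values adjusted by Benjamini-Hochberg over all 699, and 0.05 as the threshold. For low miRNAs this scale gives too small a fold change. Count tests were left out, because the smallest steps seen (4 or 5) cannot show that a step equals 1 read. The code was tested on simulated data. Ratios of cluster mates were tested by exact permutation over libraries. The named miRNAs are all family rows, the most abundant and the called miRNAs of each marker list, the 5 nearest profiles and any miRNA sharing a seed. Values of miR-205-5p, miR-184-3p, miR-31-5p, miR-194-5p, miR-96-5p, miR-375-3p, miR-122-5p, miR-34b-5p, miR-449a-5p, miR-124-3p and miR-128-3p were added after they were seen. The members and lists were chosen with earlier results of these data known. miR-449b and miR-208a-3p of the marker lists were not analysed here. The counts of calls and the fold changes of members were also computed with pseudocounts of 0.5 and 5, without the filter, with a filter of 50, under 3 other scalings, without the trend, with a replicate block and without each library, and the ratios of cluster mates with the other pseudocounts, the block and without each library. Tables and plots were made in Python 3.11.15 (pandas 2.3.3, numpy 2.4.6, matplotlib 3.10.9).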

Additional observations from a re-analysis of the deposited data

How the results depend on the processing

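The count of miRNAs past the threshold was 46. It was 61 with equal library totals (46 higher and 15 lower, against 21 and 25), 22 with quantile normalization, 0 without a trend of variance on level and 106 with a replicate block, and leaving out one library gave 13 (without control 2) to 58, with 22 without control 3 and 21 without withdrawal 2. The count of family members past it was 1. It was 2 with equal library totals, 0 with quantile normalization, 0 without the trend, 2 with the replicate block (miR-200a-3p, limma adjusted p = 0.0402), and 0 to 2 when one library was left out. The cause was not tested. Deviations of libraries with one number correlated at r = -0.073, 0.093 and 0.043, which does not show that the numbers pair them. The log2 fold change of miR-141-3p ranged from 0.60 to 0.78 over all alternatives (limma adjusted p from 0.00165 to 0.185). That of miR-429-3p (0.037) ranged from -0.056 without withdrawal 3 to 0.099 without withdrawal 2, and the log2 ratio of miR-141-3p to miR-200c-3p (-0.75) from -1.35 without control 2 to 0.33 without control 3, the library with miR-200c-3p listed at 0. Count models were not run on these normalized values, and arm ratios were not run since the family has 3p arms only. Depth limits miR-200c-3p most.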
